A study of Mus musculus with 4 samples.

Results

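Pericytes and vascular smooth muscle cells, together the mural cells of blood vessels, were examined in single-cell RNA data from mouse femur bone marrow. A cell was taken as mural when its unique molecular identifier (UMI) counts, the number of distinct RNA molecules read, met 5 conditions. It held at least 10 Rgs5 or at least 5 Myh11 UMIs per 10000, at least 1 UMI of Notch3 or Acta2, no Cdh5, fewer than 50 Cxcl12 and fewer than 20 Col2a1 per 10000. Of 18543 cells that passed quality filters, 256 cells (1.38%) met the rule. The cells were thus chosen on measured RNA, so their high Rgs5, Myh11, Acta2 and Notch3 and their low Cdh5, Cxcl12 and Col2a1 are a description of the choice, and no comparison of these cells with the rest of the marrow is a test.

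Pericytes lie against the endothelium of capillaries and share its basement membrane, whereas smooth muscle cells ring arterioles and arteries and set their width. Contraction in both rests on smooth muscle myosin and actin, switched on by calcium and by phosphorylation of the myosin light chain, and the transcription coactivator Myocd drives the smooth muscle genes through CArG boxes bound by serum response factor. Endothelial PDGF-B acting on Pdgfrb recruits mural cells, and Notch3 keeps their identity. In marrow, cells around arterioles and sinusoids also belong to the niche of blood stem cells.

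The series asked how lymphoma B cells change the marrow stroma. All animals were C57BL/6 mice of genotype Rag2-/-gammac-/-, which lack T, B and NK cells. There were 4 groups with 1 library each. Graft_D40 and Graft_D19 were femurs that had received DOHH2 cells, a line of human follicular lymphoma B cells kept in culture, and were taken at day 40 (labelled late stage) and day 19 (labelled early stage). Sham_D40 was injected with PBS and taken at day 40, and Ctrl was ungrafted and at steady state. Marrow and bone pieces were digested, depleted of Cd45 and Ter119 cells and sorted as Cd31-negative, Cd51-positive, Cd200-positive stroma, endothelium positive for Cd31 and Sca1, and lymphoma cells carrying human CD20. The sort had no gate for mural cells, a mural cell lacking Cd51 or Cd200 would have been lost, and the sources used here do not give how many animals made up a library. A group of 1 library has no replicate, so no p-values are given, and library and group cannot be told apart. Intervals are 95% intervals of counting error only, and they do not cover spread between cells, so values that rest on 1 cell are named.

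Depth differed between libraries. In Graft_D40 the mural cells held 1213955 UMIs, against 346067 for Graft_D19, 343825 for Sham_D40 and 156125 for Ctrl. The median mural cell held 8873, 6814, 8726 and 2933 UMIs in that order, so Ctrl was the shallowest. Levels are given as CPM, the counts of a gene per 1000000 UMIs summed over the mural cells of a library, and 3 UMIs correspond to 2.47, 8.67, 8.73 and 19.2 CPM in the same order. No barcode of a mural cell was shared between libraries, and none of the 53, 89, 43 and 77 cells called doublets was a mural cell.

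Of the 6 markers of the label, Rgs5, Myh11, Acta2 and Notch3 were read by the rule, so their levels describe the choice and do not check the label. Rgs5, a brake on G-protein signalling that marks pericytes, stood at 9352 CPM in Graft_D40 and 15350 in Graft_D19, against 12152 in Sham_D40 and 6399 in Ctrl, against 25.5 to 42.0 CPM in the other cells of the libraries. Myh11, the smooth muscle myosin heavy chain, stood at 2807 and 1982 CPM in Graft_D40 and Graft_D19, against 1608 and 1377 CPM in Sham_D40 and Ctrl, and at 3.04 to 5.35 CPM in other cells. Acta2, smooth muscle actin, stood at 7392 and 5135 CPM in Graft_D40 and Graft_D19, against 4083 and 12503 CPM in Sham_D40 and Ctrl, and Notch3 at 1178 and 1179 CPM in Graft_D40 and Graft_D19, against 1294 and 1006 CPM in Sham_D40 and Ctrl. Kcnj8 and Higd1b were the markers that the rule did not read, and both were above other cells in each library. Higd1b, a mitochondrial protein, was at 351 and 656 CPM in Graft_D40 and Graft_D19, against 384 and 404 CPM in Sham_D40 and Ctrl, and at 0.658 to 3.83 CPM in other cells. Kcnj8, the pore of the ATP-sensitive potassium channel of pericytes, was at 264 and 506 CPM in Graft_D40 and Graft_D19, against 256 and 576 CPM in Sham_D40 and Ctrl, but at 48.3 to 217 CPM in other cells, so it set mural cells apart least of the 6.

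The genes highest in mural cells over other cells, after the 3 marker genes Myh11, Rgs5 and Acta2, were Olfr558, Higd1b, Npy1r, H2-M9, Tagln, Kcnk3 and Pdlim3. Olfr558, an odorant receptor gene, stood at 372 CPM in Graft_D40 and 526 in Graft_D19, against 407 in Sham_D40 and 282 in Ctrl, against 0.591 to 1.39 CPM in other cells. Npy1r, a receptor for the sympathetic transmitter neuropeptide Y, stood at 215 and 179 CPM in Graft_D40 and Graft_D19, against 337 and 218 CPM in Sham_D40 and Ctrl. Summed over gene lists, without the genes of the rule, 30 receptor and second-messenger genes of vascular tone were at 5.15 to 8.34 times the level of other cells, 29 contractile genes at 6.87 to 12.5 times and 29 pericyte genes at 3.48 to 4.62 times. Of the 9 lists of other cell types, 7 were lower in mural cells than in other cells in every library, among them osteolineage at 0.0138 to 0.0578 times, chondrocyte at 0.0128 to 0.0196 times, haematopoietic at 0.0103 to 0.0427 times and LepR-positive stroma at 0.0867 to 0.322 times. Fibroblast genes were at 0.396 to 0.674 times, endothelial genes at 0.398 to 0.686 times and skeletal muscle genes at 0.123 to 0.507 times. Erythroid genes, at 0.122 to 1.06 times, and Schwann genes, at 0.515 to 1.07 times, were not lower in every library, and the Schwann genes Mbp and Sox10 had no UMI in mural cells. Ptprc, the pan-leukocyte gene, had no UMI in mural cells of any library. The endothelial sum was 2226, 2309, 2109 and 4496 CPM in mural cells of Graft_D40, Graft_D19, Sham_D40 and Ctrl, against 11707 to 25882 CPM in Cdh5-positive cells. Most of it was Fabp4, a fatty acid carrier of capillary endothelium, at 1858 and 1800 CPM in Graft_D40 and Graft_D19, against 1617 and 4054 CPM in Sham_D40 and Ctrl. Fabp4 was also at 975 to 6602 CPM in the other cells, and its source in mural cells was not tested.

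Mural cells were of 3 kinds by which threshold they met. In Graft_D40, 62 cells passed for both Rgs5 and Myh11, 24 for Rgs5 only and 39 for Myh11 only. In Graft_D19 the 3 counts were 26, 10 and 7, in Sham_D40 26, 9 and 2, and in Ctrl 24, 15 and 12. Cells with Rgs5, alone or with Myh11, are called Rgs5 cells below, and those that met only the Myh11 threshold Myh11-only cells. Between the kinds, cells lay on both sides of the thresholds: 60 of the 256 mural cells passed for Rgs5 with Myh11 between 2.5 and 10 per 10000, and 13 passed for Myh11 with Rgs5 between 5 and 20. The lowest Rgs5 among Rgs5-only cells was 33.1, 17.7, 22.8 and 17.7 per 10000 in Graft_D40, Graft_D19, Sham_D40 and Ctrl, and the highest among cells just outside was 5.30, 5.23, 2.77 and 9.94. The lowest Myh11 among Myh11-only cells was 7.58, 11.1, 13.2 and 7.17 per 10000, against 2.40, 0, 4.15 and 3.37 just outside. The plot of Rgs5 against Myh11 cell by cell shows these kinds.

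**Figure D1:**
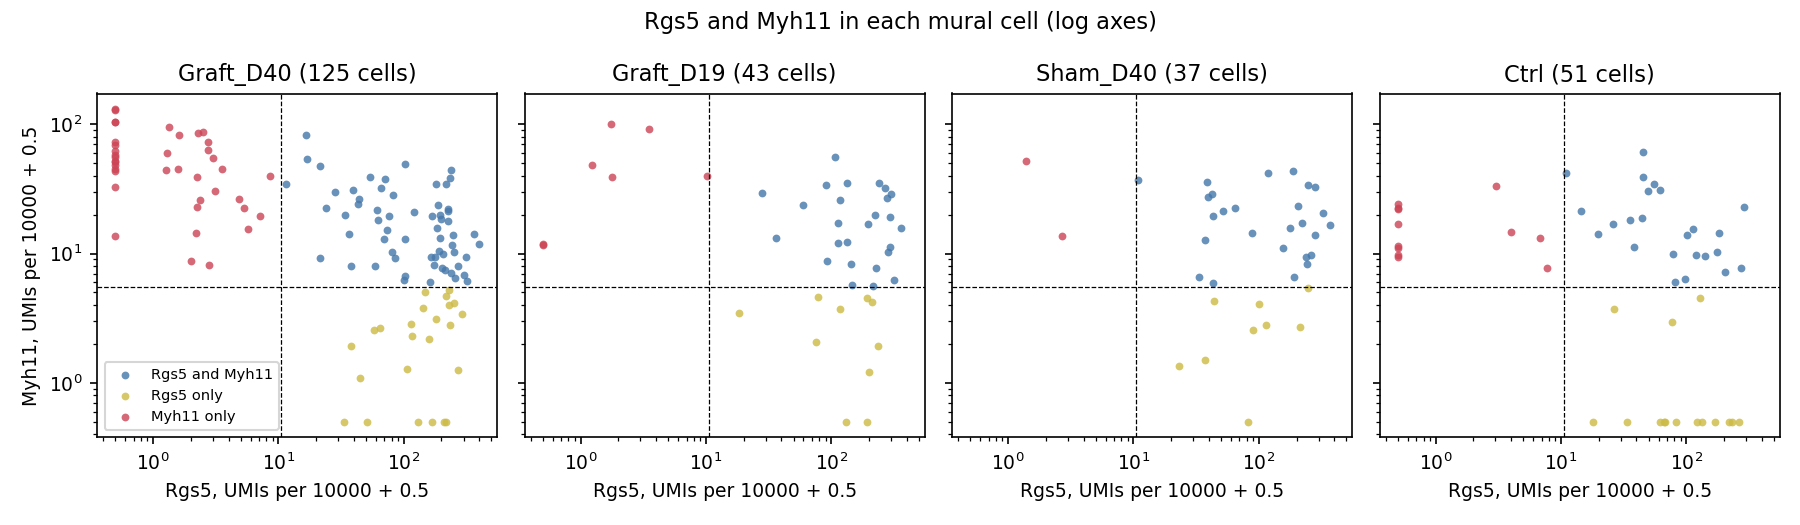
Rgs5 (x axis) against Myh11 (y axis) in each mural cell, as UMIs per 10000 plus 0.5 on log axes, 1 panel a library and 1 point a cell; dashed lines are the thresholds. Graft_D40 holds 39 Myh11-only cells in the upper left, against 7 in Graft_D19, 2 in Sham_D40 and 12 in Ctrl.

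Mural cells took the largest share of kept cells in Graft_D40 among the 4 libraries. They made up 125 of 4920 cells in Graft_D40 (2.54%, Clopper-Pearson interval 2.12 to 3.02) and 43 of 4902 in Graft_D19 (0.877%, 0.636 to 1.18). In Sham_D40 they were 37 of 4570 (0.810%, 0.571 to 1.11) and in Ctrl 51 of 4151 (1.23%, 0.916 to 1.61). The share in Graft_D40 was 3.14 times that in Sham_D40 (2.16 to 4.66) and 2.07 times that in Ctrl (1.48 to 2.92). The intervals of the other pairs held 1: Graft_D19 over Ctrl 0.714 (0.465 to 1.09), Graft_D19 over Sham_D40 1.08 (0.682 to 1.73) and Sham_D40 over Ctrl 0.659 (0.420 to 1.03). After every cell was thinned to 1000 UMIs the shares were 2.54%, 0.857%, 0.853% and 1.13% in Graft_D40, Graft_D19, Sham_D40 and Ctrl. Sort gates and the mixing of sorted fractions can set such shares, and their part was not tested.

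Both Myh11-only and Rgs5 cells took a larger share in Graft_D40 than in either ungrafted library. Myh11-only cells were 0.793% of kept cells in Graft_D40 and 0.143% in Graft_D19, against 0.0438% in Sham_D40 and 0.289% in Ctrl. Graft_D40 over Sham_D40 gave a ratio of 18.1, with an interval of 4.69 to 155 because Sham_D40 held 2 such cells, and Graft_D40 over Ctrl gave 2.74 (1.41 to 5.75). Rgs5 cells were 1.75% in Graft_D40 and 0.734% in Graft_D19, against 0.766% in Sham_D40 and 0.940% in Ctrl, which gave ratios of 2.28 (1.52 to 3.48) for Graft_D40 over Sham_D40 and 1.86 (1.26 to 2.79) for Graft_D40 over Ctrl. For the Rgs5-only cells among them the ratios were 2.48 (1.11 to 6.06) to Sham_D40 and 1.35 (0.680 to 2.77) to Ctrl, and the interval of the ratio to Ctrl held 1. Sham_D40 over Ctrl, both without graft, gave 0.151 (0.0165 to 0.680) for Myh11-only cells, so this kind also differed between the ungrafted libraries. Cells outside the rule with at least 1 Acta2 UMI and no Cdh5 or Ptprc are called Acta2-positive other stroma. They were 391 cells (7.95%) in Graft_D40 and 96 (1.96%) in Graft_D19, against 74 (1.62%) in Sham_D40 and 49 (1.18%) in Ctrl. No stromal gene was asked of them, and their haematopoietic sum was 10078 CPM in Ctrl, against 37.1 to 49.3 CPM in the other libraries. A cut of 1 UMI also depends on depth, and its part was not tested. Mural cells held 48.1% of all Acta2 UMIs in Graft_D40 and 71.3% in Graft_D19, against 64.7% in Sham_D40 and 79.4% in Ctrl.

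**Figure D2:**
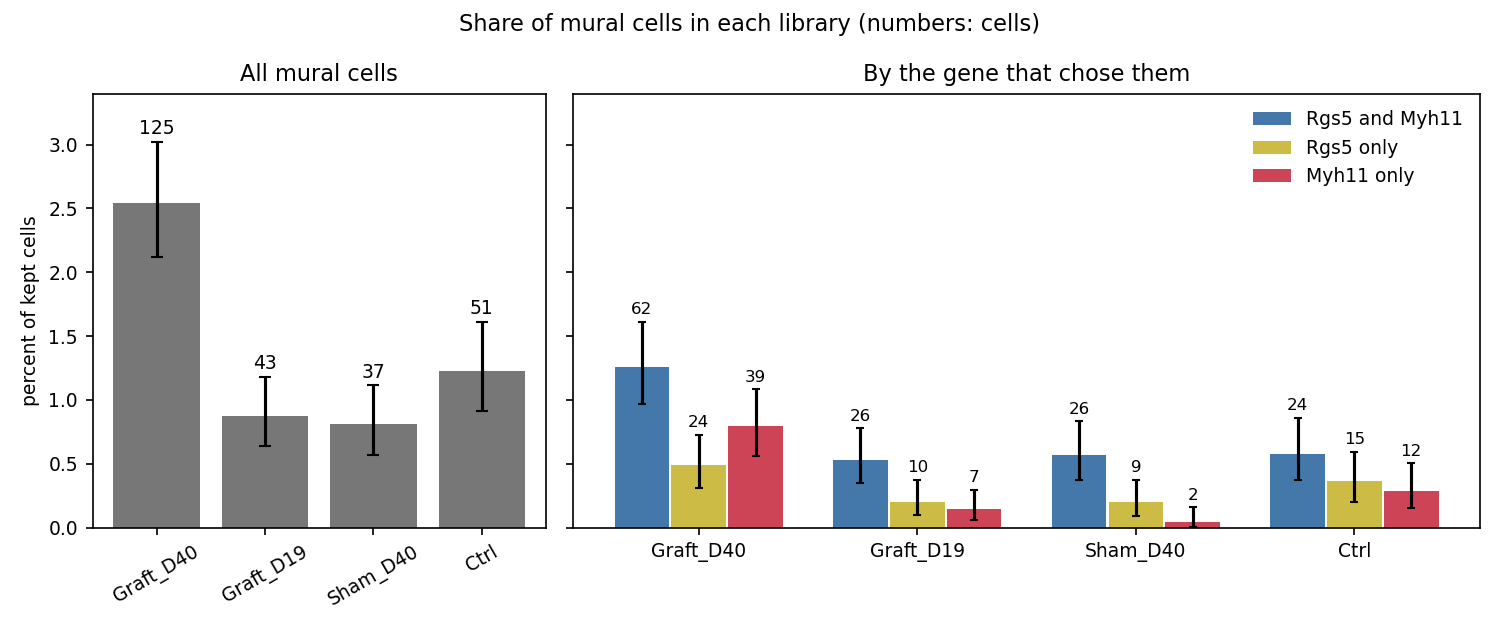
Share of kept cells (percent, y axis) that were mural in each library, in all (left) and by the threshold they met (right); bars are shares, whiskers 95% Clopper-Pearson intervals and numbers the cells. The Graft_D40 bar of 2.54% lies above the other libraries at 0.810 to 1.23%, and its Myh11-only bar of 0.793% is above those of 0.0438 to 0.289%.

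Myh11-only cells carried more contractile RNA and less of the pericyte genes than Rgs5 cells. This split was chosen after the values were seen and follows thresholds on Rgs5 and Myh11, which differ by construction, so no test is given. The rule read Acta2 and Notch3 in the same way for all mural cells. UMIs were pooled over the libraries, and 39 of the 60 Myh11-only cells came from Graft_D40. A gene was called higher or lower when the ratio was at least 2-fold with an interval off 1, among genes at an average of 20 CPM or more. By that rule 4.57% of 6547 genes were higher and 7.87% lower in Myh11-only cells, with a median log2 ratio of -0.10. Without the genes of the rule, 20 of 29 contractile genes were higher and 1, the calcium store protein Casq2, lower, with a median of 1.36. Likewise 12 of 28 pericyte genes were lower and 1, Rgs4, higher, with a median of -0.86.

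Among single genes, Cnn1, the actin-binding calponin of mature smooth muscle, was at 393 CPM in Myh11-only cells and 62.2 CPM in Rgs5 cells, 6.31-fold (4.94 to 8.13). By library Cnn1 stood at 418, 412, 394 and 153 CPM in Myh11-only cells of Graft_D40, Graft_D19, Sham_D40 and Ctrl, and at 70.4, 24.5, 86.5 and 28.9 CPM in Rgs5 cells. Sorbs2, a scaffold of actin bundles, was at 1008 against 120 CPM, 8.42-fold (7.11 to 10.0). The other genes with the largest ratios were Dcn, Grip2, Fgl2, Sfrp4, Mt2, Spp1, Hspb6 and Ndufa4, of which Dcn and Spp1 rested largely on single cells of Graft_D40 (56.0% and 73.6% of that library's mural UMIs). On the lower side H2-M9, a class I-like histocompatibility gene, had 0 UMIs in Myh11-only cells of all 4 libraries and 441 in Rgs5 cells, at least 57.7-fold lower with a floor of 3 counts over the pool. Ifitm1, an interferon-induced membrane protein, had 0 against 302 UMIs, at least 39.5-fold lower. Steap4, a metalloreductase, was at 18.9 against 744 CPM and Igf1, a growth factor, at 3.44 against 238 CPM. Kcnj8 was at 2.24, 16.5, 295 and 0 CPM in Myh11-only cells and at 416, 610, 253 and 866 CPM in Rgs5 cells of Graft_D40, Graft_D19, Sham_D40 and Ctrl. The Sham_D40 value of 295 CPM comes from 1 of the 2 cells there. Immediate early genes were also higher in Myh11-only cells, 18 of 28 with a median of 1.32, and interferon genes lower, 11 of 19 with a median of -1.10.

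**Figure D3:**
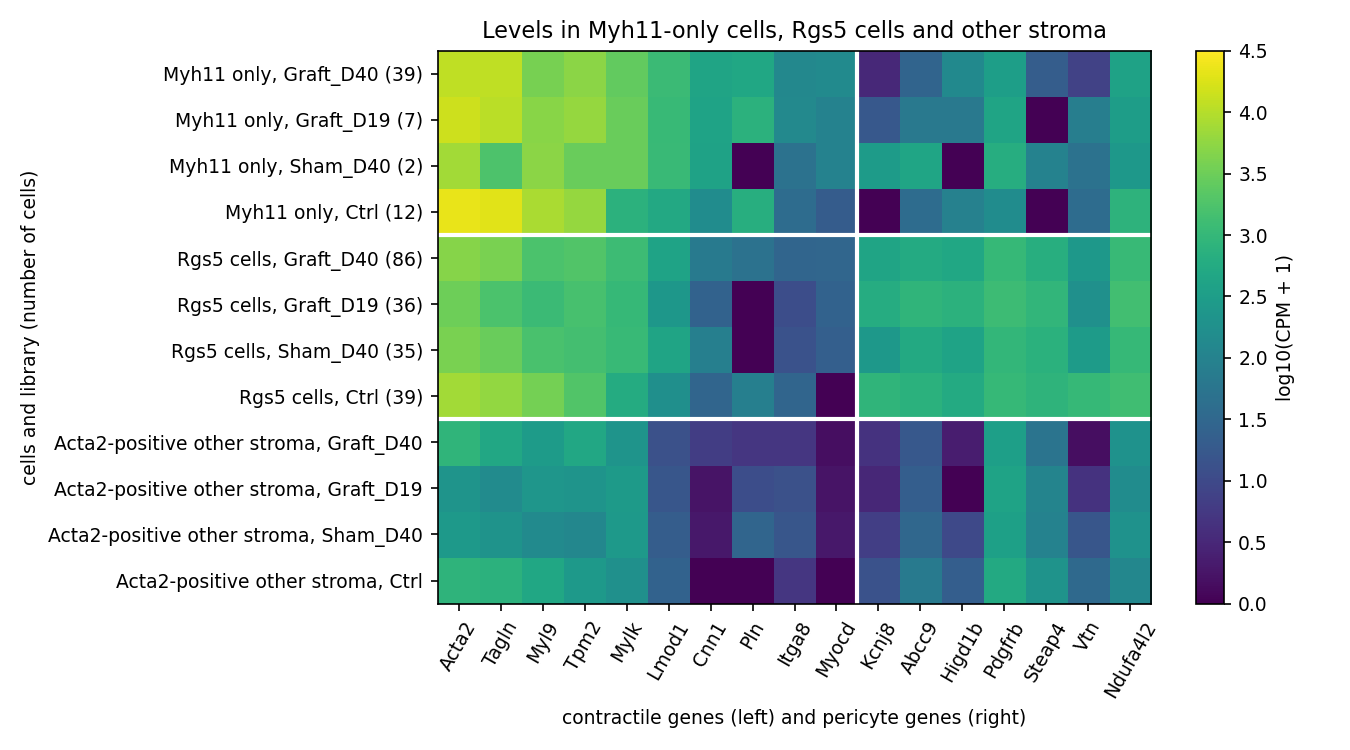
Level (colour, log10 of CPM plus 1) of 10 contractile and 7 pericyte genes (columns) by cells and library (rows). Rows are Myh11-only cells, Rgs5 cells and the Acta2-positive cells outside the rule, labelled other stroma. Cnn1 is at 153 to 418 CPM in Myh11-only cells and 24.5 to 86.5 CPM in Rgs5 cells, and Acta2-positive other stroma has 0 to 5.61 CPM.

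The split that was set out at the start set cells above the Myh11 threshold (with or without Rgs5) against Rgs5-only cells. It too follows a Myh11 threshold and reuses the same cells, so it does not check the split above. Cnn1, P2rx1 and Myocd were among the 10 genes with the largest ratios on the Myh11 side, and no list was counted for this split. By the same rule 4.33% of 6741 genes were higher and 5.01% lower. Cnn1 had 320 UMIs in cells above the Myh11 threshold and 0 in Rgs5-only cells, at least 30.6-fold higher. P2rx1, an ATP-gated cation channel by which sympathetic nerves contract vessels, had 190 against 0 UMIs and was at least 18.1-fold higher. Myocd had 109 against 0 UMIs and was at least 10.4-fold higher. Col1a1, the main fibrillar collagen chain, was lower at 400 against 1761 CPM, a ratio of 0.227 (0.204 to 0.252), and Plat, tissue plasminogen activator, at 26.9 against 137 CPM.

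Promoters of an actin, a myosin light chain, calponin and a pericyte marker are shown because contractile genes stood together in Myh11-only cells and Rgs5 did not. Those of Tagln and Myh11 were not used here. Each runs 250 bases before to 50 bases after the transcription start (RefSeq, GRCm38.p6), and capitals mark the CArG box, which is CC, then 6 letters of A or T, then GG, or a looser form with 1 of the 6 changed. The box reads alike on both strands. Acta2 lies at chr19:34255324-34255623 on the minus strand, Myl9 at chr2:156775214-156775513 on the plus strand, Cnn1 at chr9:22099003-22099302 on the plus strand and Rgs5 at chr1:169655251-169655550 on the plus strand.
Acta2: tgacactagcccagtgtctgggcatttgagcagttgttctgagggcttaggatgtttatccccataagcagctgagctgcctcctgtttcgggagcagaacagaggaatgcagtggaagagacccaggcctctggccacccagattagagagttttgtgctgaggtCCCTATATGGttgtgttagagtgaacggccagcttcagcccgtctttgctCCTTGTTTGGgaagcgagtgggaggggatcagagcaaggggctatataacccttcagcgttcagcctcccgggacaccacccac
Myl9: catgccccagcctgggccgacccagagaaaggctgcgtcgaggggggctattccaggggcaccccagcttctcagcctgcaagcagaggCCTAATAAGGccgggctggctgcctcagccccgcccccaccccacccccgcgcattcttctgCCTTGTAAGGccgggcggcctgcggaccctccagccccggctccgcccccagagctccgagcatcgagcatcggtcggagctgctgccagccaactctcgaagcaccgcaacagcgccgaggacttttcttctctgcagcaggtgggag
Cnn1: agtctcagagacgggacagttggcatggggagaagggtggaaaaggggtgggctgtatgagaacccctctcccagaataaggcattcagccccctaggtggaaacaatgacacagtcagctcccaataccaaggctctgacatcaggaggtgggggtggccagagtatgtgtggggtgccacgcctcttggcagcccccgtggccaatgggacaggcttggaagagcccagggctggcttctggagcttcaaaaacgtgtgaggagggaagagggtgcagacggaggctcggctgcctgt
Rgs5: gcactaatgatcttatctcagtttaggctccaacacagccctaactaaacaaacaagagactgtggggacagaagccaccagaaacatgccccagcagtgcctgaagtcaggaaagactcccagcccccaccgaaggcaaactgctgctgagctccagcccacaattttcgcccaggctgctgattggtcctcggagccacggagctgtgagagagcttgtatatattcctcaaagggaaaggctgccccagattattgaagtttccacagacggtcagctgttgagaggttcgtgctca
Neither form was in the windows of Cnn1 and Rgs5. The strict form was in the promoters of 2 of 25 contractile genes (8%; Myl9 and Vcl), 0 of 22 pericyte genes and 488 of 27025 genes (1.81%). The looser form was added after the strict one had matched little, and Myl9 was chosen after its match was seen. With either form 4 of 25 contractile genes (16%; Acta2, Myl9, Pcp4l1 and Vcl), 0 of 22 pericyte genes and 3050 of 27025 genes (11.3%) had a match. A match is a run of letters and not a bound site, and these short windows leave out boxes that lie farther away.

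Between Graft_D40 and Sham_D40, contractile genes, among them Tagln, Tpm2 and Myocd, were higher in Graft_D40 over all mural cells, but in Rgs5 cells alone 1 of them was higher, and in Rgs5-only cells their median was below 0. Of 6725 genes tested 169 (2.51%) were higher and 231 (3.43%) lower, 5.95% in all, with a median log2 ratio of -0.08. With the median ratio set to 0 the counts were 211 higher and 176 lower. Of 31 contractile genes 9 were higher (Tagln, Tpm2, Smtn, Pln, Itga8, Myocd, Kcnmb1, Ppp1r14a and Ppp1r12b) and 1 lower, with a median of 0.64, or 0.56 without Acta2 and Myh11. In Rgs5 cells alone, where 1.85% of 6774 genes were higher and 2.55% lower (4.40% in all), 1 of 30 contractile genes was higher and the median was 0.18. In Rgs5-only cells, of which Sham_D40 held 9, 211 of 6842 genes were higher and 234 lower. There 1 of 24 contractile genes was higher and 4 were lower, with a median of -0.50. Myh11-only cells were 31.2% of mural cells in Graft_D40 and 5.41% in Sham_D40, so the pooled ratio also carries this difference in mix. Graft_D40 over Ctrl called 966 of 6374 genes (15.2%; 8.68% higher and 6.48% lower, median 0.11). There 8 of 31 contractile genes were higher, 1 of them Myh11, which the rule reads, and 3 lower, with a median of 0.53. Of these higher genes only Myocd was also called higher against Sham_D40, and Actg2 was lower there. Sham_D40 over Ctrl, both without graft, had 2 of 30 contractile genes higher and 11 lower, with a median of -0.22. The contractile sum was 39048, 27154, 23963 and 48461 CPM in mural cells of Graft_D40, Graft_D19, Sham_D40 and Ctrl. In Rgs5 cells alone Graft_D40 over Ctrl called 12.1% of genes (5.58% higher, 6.48% lower), and 5 of 29 contractile genes were higher and 4 lower, with a median of 0.13.

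Tagln, the actin-binding protein transgelin, was at 6754 CPM in Graft_D40 and 3248 in Graft_D19, against 2847 in Sham_D40 and 10485 in Ctrl. Graft_D40 was 2.37-fold (2.22 to 2.54) above Sham_D40, whereas the ratio to Ctrl was -0.63 on the log2 scale, so the ungrafted libraries bracketed it. Pln, which restrains the calcium pump of the muscle store, was at 203 and 136 CPM in Graft_D40 and Graft_D19, against 0 and 282 CPM in Sham_D40 and Ctrl, and Graft_D40 was at least 23.3-fold above Sham_D40 with a floor of 3 counts. Here too Ctrl was the highest library. Myocd was at 70.8 and 37.6 CPM in Graft_D40 and Graft_D19, against 26.2 and 6.41 CPM in Sham_D40 and Ctrl, 2.71-fold (1.36 to 6.12) over Sham_D40, and its 1 UMI in Ctrl gave a ratio of 11.1 (1.93 to 442). Actg2, an actin of visceral muscle, was lower in Graft_D40 at 70.0 CPM than in Sham_D40 at 143 CPM, with 124 CPM in Graft_D19 and 0 in Ctrl. Acta2 and Myh11 were not called, at 1.81-fold (1.71 to 1.92) and a log2 ratio of 0.80.

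Pericyte genes as a list did not move to one side, but 4 of 30 tested were higher in Graft_D40 than in Sham_D40 and none lower, with a median of -0.21. In Rgs5 cells 3 of 30 were higher (Cspg4, Gja4 and Mcam), with a median of 0.10. Cspg4, the NG2 proteoglycan of the pericyte surface, was at 330 CPM in Graft_D40 and 361 in Graft_D19, against 128 in Sham_D40 and 102 in Ctrl. Both grafted libraries lay above both ungrafted ones, at 2.57-fold (1.88 to 3.60) for Graft_D40 over Sham_D40 and 3.52-fold (2.09 to 6.36) for Graft_D19 over Ctrl. In Rgs5 cells alone Graft_D40 was 2.39-fold (1.73 to 3.37) above Sham_D40. In other cells Cspg4 was at 150, 112, 88.2 and 17.3 CPM in Graft_D40, Graft_D19, Sham_D40 and Ctrl. Mcam, the adhesion molecule CD146, was at 383 and 405 CPM in Graft_D40 and Graft_D19, against 172 and 263 CPM in Sham_D40 and Ctrl, 2.23-fold (1.70 to 2.98) over Sham_D40. Gja4, the gap junction protein connexin 37, was at 241 and 275 CPM in Graft_D40 and Graft_D19, against 108 and 339 CPM in Sham_D40 and Ctrl, so that it was 2.24-fold (1.58 to 3.24) above Sham_D40 but not above Ctrl. Rgs4, a relative of Rgs5, was at 494 and 303 CPM in Graft_D40 and Graft_D19, against 244 and 333 CPM in Sham_D40 and Ctrl, and in Rgs5 cells its ratio was 1.17 (0.904 to 1.51).

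Of 19 tested receptor and second-messenger genes of vascular tone 2 were higher in Graft_D40 than in Sham_D40 (P2rx1 and Rgs4) and 1 lower (Ednrb), with a median of -0.20. P2rx1 was at 127 CPM in Graft_D40 and 75.1 in Graft_D19, against 2.91 in Sham_D40 and 57.6 in Ctrl. Sham_D40 stood apart, with 1 UMI, which gave Graft_D40 a ratio of 43.6 (7.71 to 1734), and Graft_D40 over Ctrl was 2.20 (1.13 to 4.90). Ednrb, an endothelin receptor, was at 26.4 and 46.2 CPM in Graft_D40 and Graft_D19, against 61.1 and 96.1 CPM in Sham_D40 and Ctrl, and its ratio in Rgs5 cells, -0.67 on the log2 scale, was not called. The soluble guanylate cyclase subunits Gucy1a1 and Gucy1b1, through which nitric oxide relaxes vessels, were at 287 to 820 CPM in the 4 libraries and not called. Of 20 ion channel and junction genes 2 were higher (Kcnmb1 and Gja4) and none lower, with a median of -0.01, and in Rgs5 cells alone only Gja4 was. Of 12 Notch pathway genes, with a median of 0.15, only Hey2, a Notch target, was called, and in Rgs5 cells alone none of 13 was. Over all mural cells Hey2 was at 99.7 and 52.0 CPM in Graft_D40 and Graft_D19, against 37.8 and 51.2 CPM in Sham_D40 and Ctrl, 2.64-fold (1.48 to 5.09) above Sham_D40. Hes1, another target, was at 157 and 225 CPM in Graft_D40 and Graft_D19, against 221 and 1057 CPM in Sham_D40 and Ctrl, with Ctrl above the other 3 libraries.

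Of 42 interstitial matrix genes 10 were higher in Graft_D40 than in Sham_D40 and 3 lower, with a median of 0.02. In Rgs5 cells alone 8 of 40 were higher and 3 lower, with a median of 0.04. Col8a1, a short-chain collagen of vessel walls, was at 256 CPM in Graft_D40 and 101 in Graft_D19, against 26.2 in Sham_D40 and 25.6 in Ctrl. It was 9.79-fold (5.09 to 21.6) above Sham_D40 and 10.0-fold (3.87 to 36.9) above Ctrl, and 12.9-fold (6.72 to 28.6) above Sham_D40 in Rgs5 cells. In other cells Col8a1 was at 423 and 200 CPM in Graft_D40 and Graft_D19, against 184 and 135 CPM in Sham_D40 and Ctrl, and the part of their RNA in the mural value was not tested. Ltbp1, which anchors latent TGF-beta, was at 97.2 and 43.3 CPM in Graft_D40 and Graft_D19, against 5.82 and 89.7 CPM in Sham_D40 and Ctrl, and Loxl1, a crosslinker of elastin, at 69.2 and 46.2 CPM in Graft_D40 and Graft_D19, against 5.82 and 44.8 CPM in Sham_D40 and Ctrl. Both stood apart in Sham_D40, with 2 UMIs each, and gave ratios of 16.7 (4.52 to 140) and 11.9 (3.19 to 99.8) over it. Timp3, a matrix-bound inhibitor of metalloproteinases, was lower at 1233 CPM in Graft_D40 and 994 in Graft_D19, against 3002 in Sham_D40, but Ctrl was at 961 CPM. Basement membrane genes showed 2 of 20 higher (Agrn and Itga8) and 1 lower (Col15a1), with a median of -0.06. Agrn, the proteoglycan agrin, was at 73.3 and 92.5 CPM in Graft_D40 and Graft_D19, against 32.0 and 19.2 CPM in Sham_D40 and Ctrl.

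Genes that Graft_D40 carried higher or lower than both Sham_D40 and Ctrl numbered 31 and 15 under the naming rule, and those with the largest ratios are plotted. How many genes were eligible under that rule was not counted, and the comparisons with Sham_D40 and Ctrl share Graft_D40. Susd5, a hyaluronan-binding protein gene, was at 110 CPM in Graft_D40 and 130 in Graft_D19, against 8.73 in Sham_D40 and 19.2 in Ctrl, with 3 UMIs in each ungrafted library. The ratios were 12.7 (4.24 to 62.1) for Graft_D40 over Sham_D40 and 6.77 (2.17 to 34.0) for Graft_D19 over Ctrl. Ldb3, a Z-line adaptor of muscle, was at 65.9 and 57.8 CPM in Graft_D40 and Graft_D19, against 14.5 and 12.8 CPM in Sham_D40 and Ctrl, with 0.284 to 0.673 CPM in other cells, and was 4.53-fold (1.86 to 14.3) above Sham_D40. In both genes the grafted libraries lay above the ungrafted ones. Susd5 in other cells was at 191 and 148 CPM in Graft_D40 and Graft_D19, against 90.2 and 19.8 CPM in Sham_D40 and Ctrl.

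Other genes of the set were high in Graft_D40 alone. Pi15, a peptidase inhibitor, was at 414, 80.9, 98.9 and 70.5 CPM in Graft_D40, Graft_D19, Sham_D40 and Ctrl, 4.19-fold (2.96 to 6.12) above Sham_D40 and 2.72-fold (1.81 to 4.25) in Rgs5 cells. Its level in other cells was 7.20 to 17.1 CPM. Ly6a, the antigen Sca1, was at 98.9 and 0 CPM in Graft_D40 and Graft_D19, against 20.4 and 6.41 CPM in Sham_D40 and Ctrl. Prg4 (lubricin), Spp1 (osteopontin), Fn1 (fibronectin) and Dcn (decorin) also headed the list, but 1 cell held 99.2%, 73.6%, 65.7% and 56.0% of their UMIs in Graft_D40. In Rgs5 cells Prg4 (-0.83), Fn1 (0.68) and Dcn (1.08, interval of the ratio 0.953 to 5.78) were no longer called on the log2 scale, and Spp1 was, at 1.87. Other cells of Graft_D40 held Prg4 at 889 CPM, Spp1 at 4309 CPM, Fn1 at 2321 CPM and Dcn at 1671 CPM, and the part of their RNA in the mural values was not tested.

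Genes lower in Graft_D40 than in both ungrafted libraries included Atf3, Gdpd2 and Fdps. Atf3, a stress transcription factor, was at 22.2 CPM in Graft_D40 and 20.2 in Graft_D19, against 111 in Sham_D40 and 359 in Ctrl, although 1 cell held 65.8% of its UMIs in Sham_D40 and 85.7% in Ctrl. Gadd45b, a stress-induced growth arrest gene, was at 44.5 and 57.8 CPM in Graft_D40 and Graft_D19, against 116 and 256 CPM in Sham_D40 and Ctrl, with 57.5% of its UMIs in 1 cell in Sham_D40. Fdps, an enzyme of cholesterol synthesis, was at 26.4 and 23.1 CPM in Graft_D40 and Graft_D19, against 78.5 and 76.9 CPM in Sham_D40 and Ctrl, 2.98-fold lower (1.72 to 5.13) than in Sham_D40. Gdpd2, a phosphodiesterase gene, was at 15.7 and 8.67 CPM in Graft_D40 and Graft_D19, against 66.9 and 83.3 CPM in Sham_D40 and Ctrl, and 4.27-fold lower (2.23 to 8.30) than in Sham_D40, and in other cells it was at 129 and 351 CPM in Graft_D40 and Graft_D19, against 649 and 675 CPM in Sham_D40 and Ctrl. Tmem100, a membrane protein gene, was at 75.8 and 150 CPM in Graft_D40 and Graft_D19, against 183 and 192 CPM in Sham_D40 and Ctrl. Igfbp3, an IGF carrier, was at 7.41 and 5.78 CPM in Graft_D40 and Graft_D19, against 128 and 51.2 CPM in Sham_D40 and Ctrl, but 1 cell held 86.4% of its UMIs in Sham_D40. Igfbp3 was not called in Rgs5 cells, and neither were Aldh1a1 and Ednrb.

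**Figure D4:**
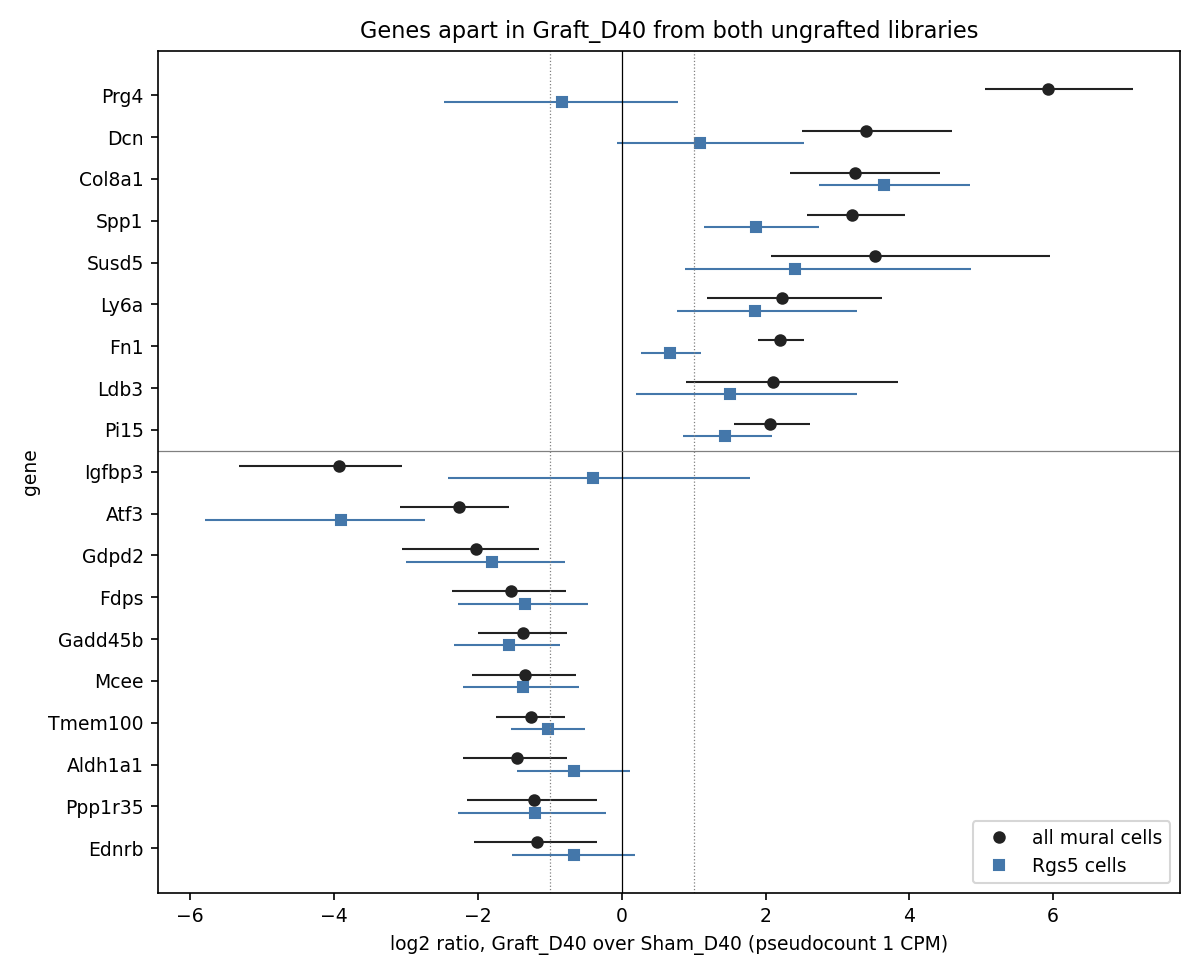
Log2 ratio of Graft_D40 over Sham_D40 (x axis) for the genes named as highest (above the line) and the 10 named as lowest in Graft_D40 against both ungrafted libraries (y axis), in all mural cells (circles) and Rgs5 cells (squares); lines are 95% counting intervals and dotted lines 2-fold. In Rgs5 cells Prg4 is at -0.83 and Igfbp3 at -0.40, Col8a1 at 3.65 and Atf3 at -3.90.

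Of 19 interferon genes 1, Irf7, was higher in Graft_D40 than in Sham_D40, with a median of 0.49. In Rgs5 cells 4 of 20 were (Isg15, Irf1, Irf7 and Iigp1), with a median of 0.71 against -0.05 over all genes. Isg15, a ubiquitin-like protein induced by interferon, was at 188, 270, 74.2 and 96.3 CPM in Rgs5 cells of Graft_D40, Graft_D19, Sham_D40 and Ctrl. In the other cells of the libraries Isg15 was at 164 and 100 CPM in Graft_D40 and Graft_D19, against 99.9 and 169 CPM in Sham_D40 and Ctrl. No antigen presentation gene of 11 tested was called. Of 16 vessel signal genes, with a median of -0.20, Pdgfb, the ligand of Pdgfrb, was higher, at 43.7 and 40.5 CPM in Graft_D40 and Graft_D19, against 14.5 and 25.6 CPM in Sham_D40 and Ctrl. Efnb2, Vegfa and Angpt1, an ephrin, the main angiogenic factor and a vessel-stabilising factor, were lower in Graft_D40, at 37.1, 42.8 and 24.7 CPM against 108, 111 and 58.2 CPM in Sham_D40. Against Ctrl none of these 4 was called. In Rgs5 cells alone Pdgfb was still called higher than in Sham_D40 and Efnb2 lower, but Vegfa and Angpt1 were not called. Of 22 TGF-beta response genes Id2 was higher, at 106 against 40.7 CPM in Graft_D40 and Sham_D40, with a list median of 0.28, and Bhlhe40, a transcriptional repressor, was among the 2 that were lower. Of 32 respiratory chain genes 1 (Ndufa4) was higher, with a median of 0.10, and of 3 cell cycle genes none was called. Of 21 glycolysis and hypoxia genes Ndrg1 was higher and Adm and Vegfa lower, with a median of 0.10, and of these 3 only Adm was called in Rgs5 cells alone. Of 16 genes of the synthetic, less contractile smooth muscle state Spp1, Ly6a and Col8a1 were higher and Cd44, a hyaluronan receptor, lower, with a median of -0.09.

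Immediate early genes, which are also induced by tissue digestion, gave unlike ratios in all mural cells and in Rgs5 cells alone. Of 27 tested 3 were higher in Graft_D40 than in Sham_D40 and 4 lower, with a median of 0.08. In Rgs5 cells none of 26 was higher and 7 were lower, with a median of -0.66. Myh11-only cells, in which this list was higher, were 31.2% of mural cells in Graft_D40 and 5.41% in Sham_D40. The ratio over all mural cells thus also carries this difference in mix. No ratio is given for Myh11-only cells, of which Sham_D40 held 2. Fos was at 682, 416, 500 and 1717 CPM in all mural cells of Graft_D40, Graft_D19, Sham_D40 and Ctrl. In Rgs5 cells Fos was at 313 and 130 CPM in Graft_D40 and Graft_D19, against 529 and 886 CPM in Sham_D40 and Ctrl, and in other cells at 741 and 1568 CPM in Graft_D40 and Graft_D19, against 1073 and 1089 CPM in Sham_D40 and Ctrl. Graft_D19 was the lowest library in Rgs5 cells and the highest in other cells.

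At day 19 the comparison with Ctrl called many genes, and so did the comparison between the ungrafted libraries. Graft_D19 over Ctrl called 931 of 6380 genes (14.6%; 548 or 8.59% higher and 383 or 6.00% lower), with a median of 0.16. Sham_D40 over Ctrl called 1102 of 6505 (16.9%; 677 or 10.4% higher and 425 or 6.53% lower), with a median of 0.18. Graft_D19 over Sham_D40 called 382 of 6795 (5.62%; 146 or 2.15% higher and 236 or 3.47% lower), with a median of -0.01. These comparisons share libraries, and each is given for itself. With the median ratio set to 0, Graft_D19 over Ctrl gave 366 higher and 537 lower, and Sham_D40 over Ctrl 463 higher and 607 lower.

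Many matrix genes were higher in Graft_D19 and in Sham_D40 than in Ctrl. Of 37 interstitial matrix genes 21 were higher in Graft_D19 than in Ctrl (median 1.23), 25 of 37 higher and 3 lower in Sham_D40 than in Ctrl (median 1.48), and 5 of 38 higher and 6 lower in Graft_D19 than in Sham_D40 (median -0.08). Col3a1, the type III collagen chain, was at 1747 CPM in Graft_D40 and 2557 in Graft_D19, against 2647 in Sham_D40 and 807 in Ctrl. Col4a1, a chain of the basement membrane collagen, was at 1779 and 2910 CPM in Graft_D40 and Graft_D19, against 1725 and 551 CPM in Sham_D40 and Ctrl. Eln, elastin, was at 257 and 474 CPM in Graft_D40 and Graft_D19, against 233 and 51.2 CPM in Sham_D40 and Ctrl, and Graft_D19 lay above both Ctrl (9.25-fold, 4.58 to 21.8) and Sham_D40 (2.04-fold, 1.55 to 2.70), although 1 cell held 37.8% of its UMIs in Graft_D19. In other cells the summed matrix level was 64579 and 45665 CPM in Graft_D40 and Graft_D19, against 42105 and 20324 CPM in Sham_D40 and Ctrl, and in mural cells 23227 and 22681 CPM, against 25632 and 10902 CPM. Ctrl was the lowest library in both, and the part of other cells' RNA in the mural values was not tested. Of basement membrane genes 9 of 18 were higher in Graft_D19 than in Ctrl and 1 of 18 (Agrn) higher and 1 (Col15a1) lower than in Sham_D40.

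Immediate early genes were lower in Graft_D19 than in either ungrafted library. Of 28 immediate early genes 20 were lower in Graft_D19 than in Ctrl and 1 higher (median -1.92), 14 lower in Sham_D40 than in Ctrl and 3 higher (median -0.89), and of 26 tested 11 lower in Graft_D19 than in Sham_D40 and 1 higher (median -0.99). Jun was at 612, 196, 640 and 500 CPM in Graft_D40, Graft_D19, Sham_D40 and Ctrl, so Graft_D19 lay below the other 3 libraries, 2.54-fold (1.81 to 3.57) below Ctrl and 3.26-fold (2.47 to 4.34) below Sham_D40. In other cells Jun was at 757 and 1281 CPM in Graft_D40 and Graft_D19, against 921 and 619 CPM in Sham_D40 and Ctrl. In Rgs5 cells alone, 13 of 28 immediate early genes were lower in Graft_D19 than in Ctrl and none higher, with a median of -1.07. That comparison called 11.1% of genes (5.37% higher, 5.68% lower). Graft_D19 over Sham_D40 called 6.13% of genes in Rgs5 cells (2.40% higher, 3.73% lower), and there 16 of 25 immediate early genes were lower, with a median of -1.30. Sham_D40 over Ctrl called 11.3% in Rgs5 cells (5.79% higher, 5.52% lower), and 4 of 28 immediate early genes were higher and 4 lower, with a median of 0.10. In Rgs5 cells the list was thus lower in Graft_D19 against each ungrafted library.

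Respiratory chain genes were lower in Graft_D19 and in Sham_D40 than in Ctrl. Of 33 respiratory chain genes 10 were lower in Graft_D19 than in Ctrl and 15 in Sham_D40 than in Ctrl, with medians of -0.86 and -0.99. Cox8a, a subunit of cytochrome oxidase, was at 1046 and 1150 CPM in Graft_D40 and Graft_D19, against 890 and 2536 CPM in Sham_D40 and Ctrl, and in other cells at 499 and 522 CPM in Graft_D40 and Graft_D19, against 506 and 921 CPM in Sham_D40 and Ctrl. Ctrl was high in both.

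Contractile genes at day 19 were called against Ctrl and, but for 1, not against Sham_D40. Of 31 contractile genes 4 were higher and 8 lower in Graft_D19 than in Ctrl (median -0.01). Without Acta2 and Myh11, which the rule reads, 4 of 29 were higher and 7 lower. Of 30 only Pln was called against Sham_D40 (median 0.14). In Rgs5 cells alone 3 of 28 contractile genes were higher than in Ctrl and 10 lower, among them Acta2, with a median of -0.22. Against Sham_D40 1 of 28, Cnn1, was lower there and none higher, with a median of -0.33. Over all mural cells Acta2 was 2.43-fold (2.28 to 2.60) lower in Graft_D19 than in Ctrl, and its ratio of Graft_D19 to Sham_D40 was 1.26 (1.17 to 1.35). Of 30 pericyte genes 4 were higher than in Ctrl (Cspg4, Ebf2, Pde5a and Rgs5, which the rule reads) and 2 lower (median 0.23). Against Sham_D40 4 were higher (Cspg4, Gja4, Mcam and Foxs1) and 1 lower (median 0.28). In Rgs5 cells alone 1 of 30 was higher than in Ctrl and 3 were lower, with a median of 0.13. Against Sham_D40 5 of 30 were higher there and none lower, with a median of 0.34. Under the naming rule 33 genes were higher and 25 lower in Graft_D19 than in both ungrafted libraries. Here too the comparisons share the grafted library, and the number of eligible genes was not counted. Stc1, the hormone stanniocalcin, was at 21.4, 83.8, 14.5 and 0 CPM in Graft_D40, Graft_D19, Sham_D40 and Ctrl, with Graft_D19 5.76-fold (2.21 to 19.1) above Sham_D40 and at least 4.36-fold above Ctrl. Col13a1, a membrane collagen, was at 32.1 and 54.9 CPM in Graft_D40 and Graft_D19, against 8.73 and 0 CPM in Sham_D40 and Ctrl, and Acan, the cartilage proteoglycan, at 25.5 and 57.8 CPM in Graft_D40 and Graft_D19, against 8.73 and 0 CPM in Sham_D40 and Ctrl. Acan was at 156 to 1192 CPM in other cells. Selenbp1, a methanethiol oxidase, was lower at 33.8 and 8.67 CPM in Graft_D40 and Graft_D19, against 61.1 and 109 CPM in Sham_D40 and Ctrl, and so was Acot13, a thioesterase, at 23.1 and 11.6 CPM in Graft_D40 and Graft_D19, against 52.4 and 51.2 CPM in Sham_D40 and Ctrl.

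**Figure D5:**
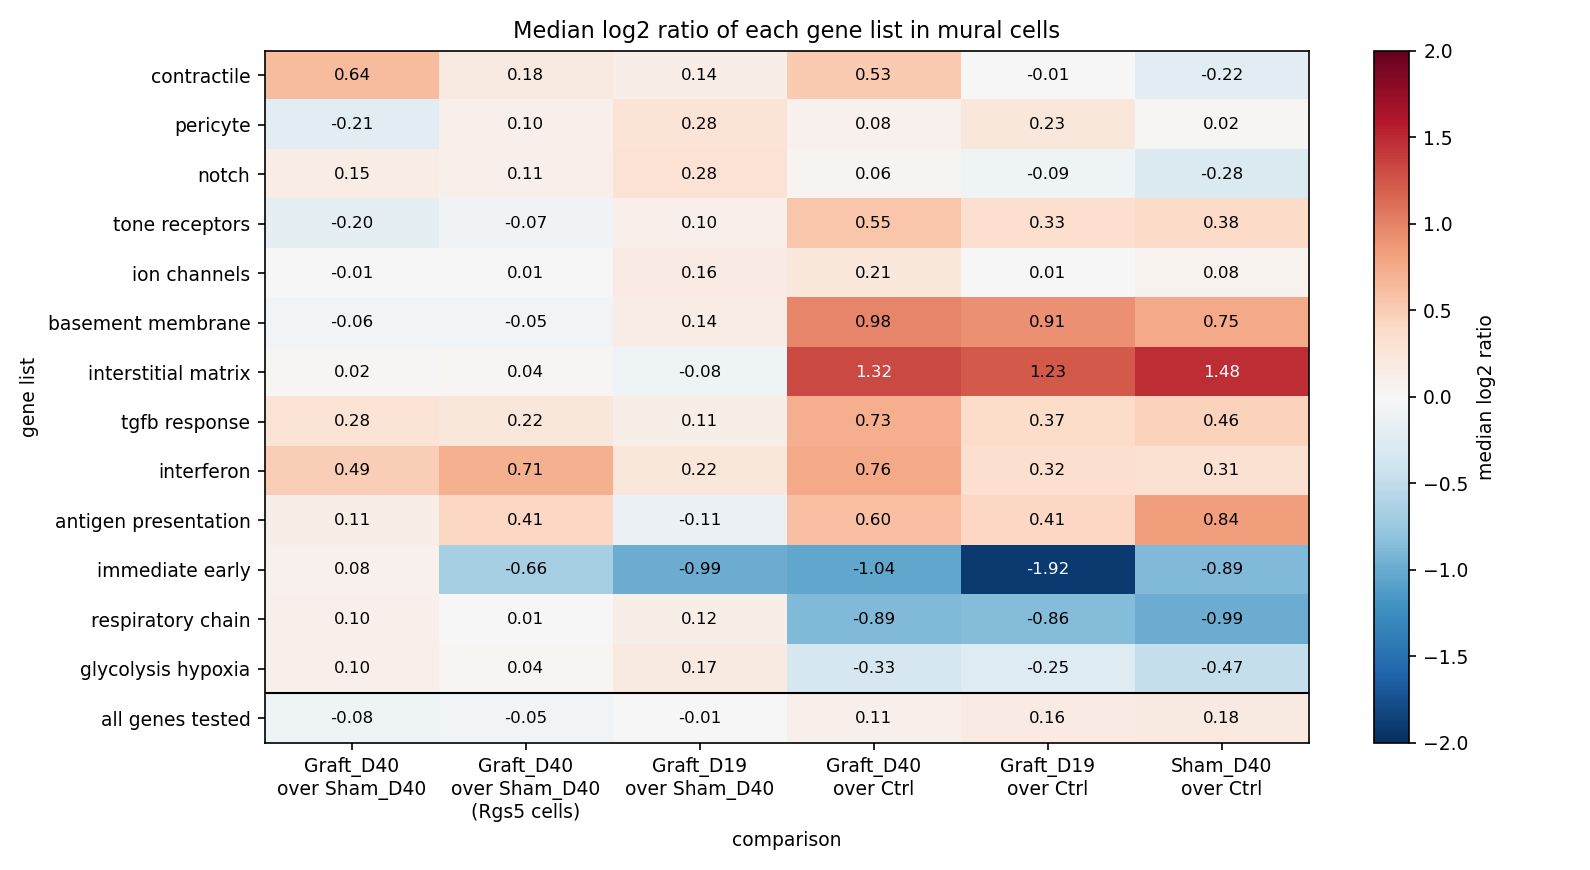
Median log2 ratio (colour and printed value) of each gene list (rows) in mural cells for 6 comparisons (columns), with the median of all genes tested in the last row. The matrix row is at 1.23 to 1.48 in the 3 comparisons with Ctrl and at -0.08 to 0.04 in those with Sham_D40, and the immediate early row is at -1.92 in Graft_D19 over Ctrl.

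The list of niche factors for blood cells had a lower sum in mural cells than in other cells, but not every gene followed. The sum of 27 niche genes was 0.0981 to 0.284 times that of other cells. In other cells of Graft_D40 most of that sum was Spp1, at the level given above, and no sum without Spp1 was taken. Kitl, the stem cell factor, was at 256, 324, 393 and 211 CPM in Graft_D40, Graft_D19, Sham_D40 and Ctrl. In other cells Kitl was at 266 and 554 CPM in Graft_D40 and Graft_D19, against 1220 and 1004 CPM in Sham_D40 and Ctrl. Jag1, a Notch ligand, was at 209 and 217 CPM in Graft_D40 and Graft_D19, against 131 and 295 CPM in Sham_D40 and Ctrl and above other cells at 34.2 to 60.8 CPM. Markers of other stroma were found in mural cells at levels that differed between libraries. The osteolineage sum was 860, 350, 207 and 237 CPM in mural cells of Graft_D40, Graft_D19, Sham_D40 and Ctrl, with 12, 11, 10 and 6 of its 12 genes detected. The number of genes detected, but not the sum, followed the order of the libraries by the summed UMIs of their mural cells. Of 5 osteolineage genes tested 4 were higher in Graft_D40 than in Sham_D40 (Ibsp, Alpl, Mmp13 and Spp1). In Rgs5 cells alone 2 of 4 were (Alpl and Spp1). Most Spp1 UMIs of Graft_D40 mural cells lay in a single cell, as given above. The osteolineage sum of Graft_D40 was 476 CPM in Rgs5 cells and 1518 CPM in Myh11-only cells. Alpl, the bone alkaline phosphatase also found in vessels, was at 53.5 and 69.4 CPM in Graft_D40 and Graft_D19, against 14.5 and 38.4 CPM in Sham_D40 and Ctrl. The chondrocyte sum was 347 and 231 CPM in Graft_D40 and Graft_D19, against 154 and 57.6 CPM in Sham_D40 and Ctrl and the fibroblast sum 2317 and 1387 CPM in Graft_D40 and Graft_D19, against 1917 and 1294 CPM in Sham_D40 and Ctrl. Erythroid genes summed to 24.7 and 28.9 CPM in Graft_D40 and Graft_D19, against 37.8 and 275 CPM in Sham_D40 and Ctrl, highest in Ctrl. Other cells held 14889 to 16435 CPM of the osteolineage sum and 3696 to 18001 CPM of the chondrocyte sum, and the part of these cells in the mural values was not tested.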

How the data were processed

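Single-cell RNA (10x, 3' end) was read in 4 libraries, 1 a group. The deposited matrices hold the authors' raw UMI counts per gene and barcode, made with Cell Ranger (5.0.0 per the file headers, 3.1.0 per the submitters' processing notes, which name mm10). Barcodes with 500 genes, 1000 UMIs and at most 10% mitochondrial UMIs were kept; Scrublet in scanpy 1.11.5 called doublets, which stayed in and included no mural cell. UMIs of mural cells were summed per library and given as CPM over gene UMIs. Ratios carry exact conditional binomial intervals and shares Clopper-Pearson intervals (scipy 1.17.1, Python 3.11.15). Log2 ratios used a pseudocount of 1 CPM. Genes averaging at least 20 CPM over the libraries compared were tested, and a call needed 2-fold with a 95% interval off 1; a fold against 0 used a floor of 3 counts in the library or pool at 0. The script was tested on simulated counts.

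Members and gene lists were chosen with earlier results of these data known. Genes named were the 6 markers; genes at 50 CPM called the same way against both ungrafted libraries, in order of their weaker log2 ratio (10 each way at day 40, 5 at day 19); from each list the 4 highest and up to 4 called at day 40; the 10 most extreme between threshold groups and over other cells. Some items that these rules pick are not reported here. Other called list members, and genes given beside them, were named after their values were seen. Alternatives were the minimum CPM, scaling, comparator, cell subsets, mean over cells and leaving out the largest cell.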

Additional observations from a re-analysis of the deposited data

Results flagged for a closer look

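Antibody-derived features, which no comparison above uses, were counted in Sham_D40 and Graft_D40 only. Feature B0301 had a median of 177 UMIs per mural cell in Sham_D40 and B0302 a median of 311 in Graft_D40. In the other direction B0301 had a median of 0 in Graft_D40 mural cells and B0302 a median of 3 in Sham_D40 mural cells. Other kept cells had medians of 590 for B0302 and 1 for B0301 in Graft_D40, and of 344 for B0301 and 7 for B0302 in Sham_D40. The labels used here do not say what the features bind, and the comparison of medians was chosen after the values were seen.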

How the results depend on the processing

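In Ctrl 3 UMIs are 19.2 CPM, so genes near the minimum of 20 CPM rest on few counts there. The cause of each change below was not tested. With cells lacking Cdh5 and Ptprc as denominator the shares were 4.0%, 1.35%, 1.23% and 2.00% in Graft_D40, Graft_D19, Sham_D40 and Ctrl. Called genes in Graft_D40 over Sham_D40 numbered 645 without a minimum level, 61 at a minimum of 100 CPM and 966 with Ctrl as comparator. At 100 CPM Graft_D19 over Ctrl called 342 and Sham_D40 over Ctrl 416, and Graft_D19 called 382 with Sham_D40 as comparator. In Rgs5-only cells Graft_D19 over Ctrl called 331 and Sham_D40 over Ctrl 391. The contractile median of Graft_D40 over Sham_D40 was 0.18 in Rgs5 cells and -0.50 in Rgs5-only cells.

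Some called genes changed sign on the log2 scale. With Ctrl as comparator for Graft_D40, 19 did: Tagln -0.63, Pln -0.47, Gja4 -0.50, Angpt1 1.80, Timp3 0.36, Bhlhe40 0.41, Mdk 0.66, Gadd45g -2.36, Hspa1b 0.11, Ier3 -1.54, Adm 1.80, Ndufa4 -1.53, Cd44 1.14, Mfap5 1.35, Fcer1g 0.0356, Hspb6 -0.11, Gm37800 -1.73, Timp4 -0.75 and Rasd1 -0.71. With Sham_D40 as comparator for Graft_D19, 23 did: Acta2 0.33, Fn1 -0.15, Tagln 0.19, Myl9 0.018, Pln 7.10, Hes1 0.028, Nrip2 0.24, Nrp1 -1.04, Angpt1 -0.33, Mgp -0.12, Col3a1 -0.0495, B2m -0.61, Gadd45g 0.67, Ier3 1.44, Aldoa 0.0308, Cox8a 0.37, Ndufa4 1.29, S100a4 -0.43, Fabp4 0.15, Mt2 1.47, Gm37800 1.17, Timp4 2.10 and Rasd1 2.23. A further 17 and 8 uncalled genes were called the other way. In Rgs5 cells, a setting chosen after seeing the data, Prg4 was -0.83, Cxcl14 -0.24 and Hspb6 -0.0496 (Graft_D40), and Sfrp4 -0.41 (Graft_D19). Without the mural cell that held the most UMIs of the gene in each library, Prg4 was -0.62 (Graft_D40), Cxcl14 -0.17 and Sfrp4 -0.15 (Graft_D19). Of 136 called ratios of named genes 78 kept direction and call in Rgs5 cells, 113 as a mean over cells and 104 without that cell, and 54, 23 and 29 kept only direction. Of the ratios uncalled in both, 51 of 191, 23 of 200 and 24 of 192 changed sign. No paired analysis was possible because each group is 1 library.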
